A study of Mus musculus with 6 samples.

Results

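The 9 genes described here carry the Hedgehog signal of the colon wall: the ligands Ihh and Shh, the receptor Ptch1, the signal transducer Smo, the ligand-binding inhibitor Hhip, the transcription factors Gli1, Gli2 and Gli3, and the mesenchymal transcription factor Foxf1. They were taken by gene symbol from a table of 18477 genes measured in the colon of mice with colitis, and all 9 were listed. RNA was sequenced from 6 colons of male C57BL/6 mice of young adult age. All 6 mice drank dextran sulfate sodium (DSS), a polymer that injures the colon epithelium, during the later week of the experiment. The DSS group (n = 3) received PBS by daily gavage, and the DSS+BV group (n = 3) received *B. vulgatus*, a human gut commensal, by daily gavage. The mice were drawn at random from larger groups, each gave 1 library, and no library of mice without DSS was used here, so both groups describe injured colon.

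In the gut, Hedgehog ligands are made by epithelial cells and act mainly on the mesenchyme beneath them. Without ligand, Ptch1 holds Smo inactive, and the Gli factors, above all Gli3, act as repressors. When ligand binds Ptch1, Smo is released and Gli proteins, above all Gli2, switch on target genes. Gli1, Ptch1 and Hhip are themselves such targets: Gli1 amplifies the response, whereas Ptch1 and Hhip bind ligand and dampen it. Foxf1 is a mesenchymal factor that depends on Hedgehog input in the developing gut. Ihh is the main ligand of the adult colon, and Shh is restricted to few cells there.

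Sequence around the annotated start was held for 6 of the 9 genes (Ihh, Ptch1, Smo, Hhip, Gli2 and Gli3). The windows are from RefSeq on build GRCm38.p6, written 5′ to 3′ on the strand of the gene. The ligand and the pair of ligand-binding inhibitors are shown because the comparisons below turn on them. Capitals mark the core of the Gli binding motif, CCACCC, or its reverse complement GGGTGG. Only bases outside annotated exons are printed, which leaves 250 bases for Ihh (chr1:74951673-74951922, minus strand), 198 for Hhip (chr8:80058061-80058258, minus strand) and 250 for Ptch1 (chr13:63565736-63565985, minus strand, before a start that lies inside the full span of the gene).
Ihh: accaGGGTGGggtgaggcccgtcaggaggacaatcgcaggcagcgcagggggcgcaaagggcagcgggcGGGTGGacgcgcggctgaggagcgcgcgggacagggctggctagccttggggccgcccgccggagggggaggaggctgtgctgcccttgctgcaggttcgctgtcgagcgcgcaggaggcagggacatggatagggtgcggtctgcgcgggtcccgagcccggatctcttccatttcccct
Hhip: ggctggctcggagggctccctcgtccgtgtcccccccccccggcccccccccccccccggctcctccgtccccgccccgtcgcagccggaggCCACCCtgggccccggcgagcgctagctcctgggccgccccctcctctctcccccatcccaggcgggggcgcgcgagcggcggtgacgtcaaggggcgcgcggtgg
Ptch1: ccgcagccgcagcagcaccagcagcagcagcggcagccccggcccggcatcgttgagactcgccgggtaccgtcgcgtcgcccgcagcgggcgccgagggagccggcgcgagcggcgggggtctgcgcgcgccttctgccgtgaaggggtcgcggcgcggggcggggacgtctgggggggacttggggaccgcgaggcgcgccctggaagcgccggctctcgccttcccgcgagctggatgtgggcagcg
The full motif GACCACCCA, searched on both strands, was present without mismatch in 0.253% of 32851 RefSeq windows of equal length and with up to 1 mismatch in 6.74%. It was found in 0 of the 6 windows in either form. These searches covered the whole windows, which run past the start and beyond the printed bases. The 6-letter core, which lies within the full motif, was found in 5 of the 6 windows, all except that of Ptch1, and in 31.5% of all windows. The core is rich in G and C, as are the stretches of the members, from 67.2% (Gli2) to 82.3% (Hhip). The share over all windows was not matched for this. The stretch before Ihh holds 2 cores, that before Hhip 1 and that before Ptch1 0. These matches describe letters in a window and not binding.

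On build GRCm38.p6, Ihh (Entrez gene 16147) lies on chromosome 1 at 74945315 to 74951672, minus strand. Shh (20423) lies on chromosome 5 at 28456840 to 28467101, minus strand. Ptch1 (19206) occupies chromosome 13 at 63508328 to 63573460, minus strand, and Gli3 (14634) the same chromosome at 15463723 to 15730026, plus strand. Smo (319757) is found on chromosome 6 at 29735497 to 29761366, plus strand. Hhip (15245) and Foxf1 (15227) share chromosome 8, at 79965850 to 80058060 on the minus strand and at 121084386 to 121088154 on the plus strand. Gli1 (14632) lies on chromosome 10 at 127329882 to 127341579, minus strand, and Gli2 (14633) on chromosome 1 at 118834061 to 119054405, minus strand. Exons of Shh, Hhip, Gli1 and Foxf1 overlap exons of a gene on the opposite strand, and whether counting used the strand is not given in the sources used here. Of these partners, Arhgap9, next to Gli1, was the one in the table, at 12.9, 7.77 and 17.8 CPM in the DSS libraries and 11.1, 8.79 and 9.1 CPM in the DSS+BV libraries.

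Library totals lay between 15293276 and 17254343 expected counts, and expression is given as CPM, the count scaled by the TMM-adjusted total of its library. By correlation over all tested genes the libraries did not fall into their groups: DSS 1, DSS 3 and DSS+BV 1 clustered together, apart from DSS 2, DSS+BV 2 and DSS+BV 3. The log2 fold changes of Ihh, Hhip, Gli1, Gli2, Gli3 and Foxf1 are therefore also given without DSS 2 and DSS+BV 1. Those libraries are the ones nearest the other group, so leaving them out by construction favours differences and is no independent check. The summed level of 12 epithelium markers was 13064 to 15090 CPM in the DSS mice and 16465 to 21465 CPM in the DSS+BV mice, with 12 of 12 higher. The sum of 12 fibroblast markers was 1427 to 2091 CPM in the DSS mice and 790 to 1211 CPM in the DSS+BV mice, with 12 of 12 lower and a median log2 fold change of -0.62. Smooth muscle markers differed less (3655 to 4579 against 2868 to 4389 CPM), with 7 of 10 lower. Enteric neuron and glia markers were at 69 to 265 against 49.2 to 53.4 CPM, with 10 of 10 lower and a median log2 fold change of -1.64. None of these 4 lists held a gene that passed the test described below. Of the other lists, 8 of 8 endothelium genes (367 to 517 against 249 to 327 CPM in sum), 8 of 8 macrophage genes (507 to 1070 against 283 to 646) and 7 of 7 neutrophil genes (202 to 1014 against 29.4 to 324, with 5 called) were lower in DSS+BV. B and T cell genes summed to 141, 246 and 219 CPM in DSS 1, DSS 3 and DSS+BV 1 and to between 29.6 and 33.6 CPM in the remaining libraries. The position marker Hoxb13, a gene of the most distal colon, ranged from 0 CPM in DSS+BV 3 to 248 CPM in DSS+BV 1. In bulk tissue, fewer cells of a type and less RNA per cell cannot be told apart, and the part of tissue makeup or colon position in the differences below was not tested.

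The comparison asked of all 9 genes was whether their transcript level differed between colitic mice with and without the bacterium. The quasi-likelihood fit of edgeR covered 14579 genes, and a gene was called at an adjusted p under 0.05 with an absolute log2 fold change over 1. By this test 0 of the 8 members that passed the filter on low counts were called, against 0.0892% of all tested genes, and Shh did not pass the filter. With DESeq2, 1 member, Hhip, was called, against 2.01% of all genes. At an unadjusted edgeR p under 0.05, 1 member was higher in DSS+BV (Hhip), against 3.4% of all genes, and 2 were lower (Gli3 and Foxf1), against 9.12%. The same genes were those whose groups did not overlap: Hhip with every DSS+BV library above every DSS library, as for 6.37% of all genes, and Gli3 and Foxf1 with every DSS+BV library below, as for 11.3%. The median log2 fold change of the 8 members was -0.16, and that of all tested genes was -0.01.

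**Figure D1:**
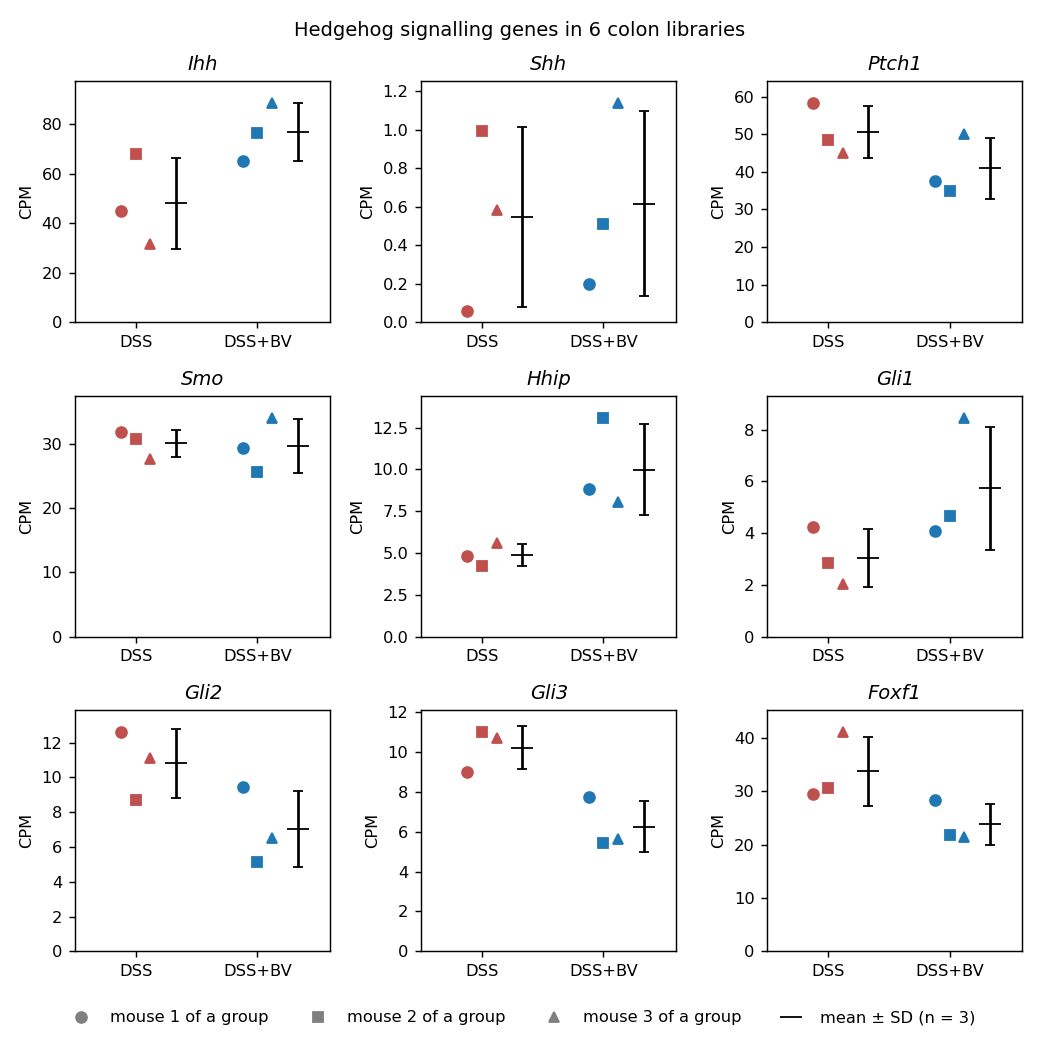
Expression of the 9 Hedgehog signalling genes in CPM (vertical axes, each from 0) in the 3 DSS libraries (red) and the 3 DSS+BV libraries (blue); marker shapes give the mouse number and black bars the mean ± SD. Hhip is higher in every DSS+BV mouse (8.03 to 13.1 CPM) than in any DSS mouse (4.23 to 5.59 CPM), while Gli3 and Foxf1 are lower in every DSS+BV mouse.

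Ihh, the ligand of the differentiated colon epithelium, was at 44.8, 67.9 and 31.5 CPM in the DSS mice (1, 2 and 3 in order here and below) and at 65.0, 76.6 and 88.6 CPM in the DSS+BV mice. The groups overlapped through a single pair, since DSS 2 stood above DSS+BV 1. The means were 48.1 ± 18.4 CPM in the DSS mice and 76.8 ± 11.8 CPM in the DSS+BV mice (SD, n = 3 each). The log2 fold change was 0.68 with an SE of 0.286 and a 95% interval of -0.01 to 1.36, and the adjusted p of edgeR was 0.401. The value depended on single DSS libraries: it was 0.446 without DSS 3 and 1.03 without DSS 2. Without both DSS 2 and DSS+BV 1, the pair behind the overlap, it was 1.14 with an adjusted edgeR p of 0.0534. That choice favours a difference by construction.

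Shh, the second epithelial ligand, was close to the limit of detection in both groups. Its counts were 1, 16 and 10 in the DSS libraries and 3, 8 and 18 in the DSS+BV libraries, which is 0.0599, 0.995 and 0.582 CPM against 0.198, 0.51 and 1.14 CPM. A count of 3 corresponds to between 0.175 and 0.198 CPM in these libraries, so DSS 1 lay under it and DSS+BV 1 at it. The groups overlapped over most of their range, and no difference was detectable at this depth. The groups held 0.546 ± 0.468 and 0.615 ± 0.479 CPM (SD, n = 3 each).

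Ptch1, the receptor and a target of the pathway, was at 58.3, 48.4 and 45.0 CPM in the DSS mice and at 37.5, 35.0 and 50.1 CPM in the DSS+BV mice. DSS+BV 3 lay above the lower pair of DSS libraries, so the groups overlapped. The log2 fold change was -0.31 (SE 0.187, 95% interval -0.75 to 0.14, adjusted edgeR p 0.538). Without DSS+BV 3 it was -0.476, and without DSS 1 it was -0.191.

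Smo, the membrane protein that Ptch1 holds in check, was the most even of the members. It was at 31.8, 30.8 and 27.7 CPM in the DSS mice and at 29.4, 25.7 and 34.1 CPM in the DSS+BV mice, and its highest library was 1.32 times its lowest. The group means of 30.1 ± 2.12 and 29.7 ± 4.18 CPM (SD, n = 3 each) gave a log2 fold change of -0.02 with a 95% interval of -0.40 to 0.36, whose sign turned under several other settings.

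Hhip, a membrane-anchored decoy that binds Hedgehog ligands and lowers signalling, had the smallest p of the 8 tested members. It was at 4.85, 4.23 and 5.59 CPM in the DSS mice and at 8.84, 13.1 and 8.03 CPM in the DSS+BV mice. The lowest DSS+BV library thus stood above the highest DSS library, with means of 4.89 ± 0.682 and 9.98 ± 2.7 CPM (SD, n = 3 each). The log2 fold change was 1.03 (SE 0.271, 95% interval 0.38 to 1.68), with an unadjusted edgeR p of 0.00745 and an adjusted edgeR p of 0.287, which did not pass the threshold. DESeq2 gave a log2 fold change of 1.05 with an adjusted p of 0.0357, and this was the one call among the members. Leaving out a single library gave log2 fold changes between 0.79 (without DSS+BV 2) and 1.17 (without DSS+BV 3), all with edgeR. Without DSS 2 and DSS+BV 1 the value was 1.04, with an adjusted edgeR p of 0.176.

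Gli1, the Gli factor that is transcribed in response to the signal, had low levels in all libraries, at 4.25, 2.86 and 2.04 CPM in the DSS mice and 4.09, 4.65 and 8.47 CPM in the DSS+BV mice. DSS 1 stood above DSS+BV 1, so the groups overlapped, and DSS+BV 3 was the highest of the 6. Group means were 3.05 ± 1.12 and 5.74 ± 2.38 CPM (SD, n = 3 each). The log2 fold change was 0.91 (SE 0.414, 95% interval -0.08 to 1.90, adjusted edgeR p 0.429). Without DSS+BV 3 the log2 fold change was 0.522, and without DSS 2 and DSS+BV 1 it was 1.09 (adjusted edgeR p 0.288).

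Gli2, the main activator among the Gli factors, was at 12.6, 8.7 and 11.1 CPM in the DSS mice and at 9.43, 5.16 and 6.51 CPM in the DSS+BV mice. Its groups overlapped, because DSS 2 lay below DSS+BV 1, and the log2 fold change was -0.62 (SE 0.292, adjusted edgeR p 0.442). Without that pair of libraries the value for Gli2 was -0.991 (adjusted edgeR p 0.132). Gli3, the main repressor, was at 8.98, 11 and 10.7 CPM in the DSS mice and at 7.72, 5.42 and 5.63 CPM in the DSS+BV mice. Every DSS+BV library of Gli3 stood below every DSS library, with means of 10.2 ± 1.08 and 6.25 ± 1.27 CPM (SD, n = 3 each). The log2 fold change of Gli3 was -0.71 (SE 0.234, 95% interval -1.27 to -0.15), with an unadjusted edgeR p of 0.0202 and an adjusted edgeR p of 0.345, and without the same pair it was -0.808 (adjusted edgeR p 0.202).

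Foxf1, the mesenchymal forkhead factor, was at 29.5, 30.6 and 41.1 CPM in the DSS mice and at 28.3, 21.8 and 21.5 CPM in the DSS+BV mice. All DSS+BV libraries were below all DSS libraries, although DSS 1 and DSS+BV 1 lay close together, and the means were 33.7 ± 6.41 and 23.9 ± 3.84 CPM (SD, n = 3 each). The log2 fold change was -0.50 (SE 0.199, 95% interval -0.98 to -0.02), with an unadjusted edgeR p of 0.0419 and an adjusted edgeR p of 0.389. Without DSS 3, the library highest in Foxf1 and in fibroblast markers, it was -0.333, and without DSS 2 and DSS+BV 1 it was -0.687 (adjusted edgeR p 0.186).

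To compare levels between genes, CPM were divided by exon length in kilobases (gene models of GENCODE M21, which may differ from those the authors counted on). Ihh was the most abundant on this scale, with a mean level of 25.3 over the 6 libraries (range 12.8 to 35.9), followed by Foxf1 at 11.9 (8.9 to 17), Smo at 7.91 (6.81 to 9.02) and Ptch1 at 5.86 (4.49 to 7.47). The ranges of neighbours in this order overlapped down to Ptch1. A gap separated Ptch1 from Gli2 at 1.34 (0.778 to 1.89), Gli1 at 1.08 (0.502 to 2.09), Gli3 at 0.989 (0.65 to 1.32) and Hhip at 0.819 (0.466 to 1.44), whose ranges overlapped one another. Shh was lowest, at 0.204 (0.021 to 0.4), below the range of Hhip.

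Because ligand and targets are measured in the same library, their ratio does not depend on library scaling. It does set an epithelial gene against stromal ones. Mean marker sums in DSS+BV were 1.35 times (epithelium) and 0.563 times (fibroblast) those in DSS, and their part in the ratios was not tested. The log2 level of Ihh minus that of Ptch1 was -0.38, 0.49 and -0.51 in the DSS libraries and 0.79, 1.13 and 0.82 in the DSS+BV libraries. Ihh was thus below Ptch1 in 2 of 3 DSS mice and above it in 3 of 3 DSS+BV mice by CPM not divided by length, and the groups did not overlap. The difference between groups was 1.05 on the log2 scale, a 2.07-fold higher ratio in DSS+BV, with a two-sided exact permutation p of 0.1 (adjusted p 0.2 over 4 ratios), the smallest p that 3 against 3 mice can give.

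Against Foxf1, the log2 level of Ihh was 0.60, 1.15 and -0.38 in DSS and 1.2, 1.81 and 2.04 in DSS+BV. The groups again did not overlap, with a margin of a few hundredths between DSS 2 and DSS+BV 1, and the ratio was 2.34-fold higher in DSS+BV (log2 difference 1.23, exact permutation p 0.1, adjusted p 0.2). This difference was 0.81 without DSS 3 and 1.57 without DSS 2. The ratios to the remaining targets did not show this pattern. Ihh minus Gli1 was 3.36, 4.51 and 3.87 in DSS and 3.95, 4.01 and 3.37 in DSS+BV, a difference of -0.14 (exact permutation p 1). Ihh minus Hhip was 3.17, 3.97 and 2.47 in DSS and 2.86, 2.54 and 3.44 in DSS+BV, a difference of -0.25 (exact permutation p 0.7, adjusted p 0.933). In both, the highest and the lowest library belonged to the DSS group. The sign of both small differences turned when DSS 2 was left out, to 0.16 for Gli1 and 0.13 for Hhip.

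**Figure D2:**
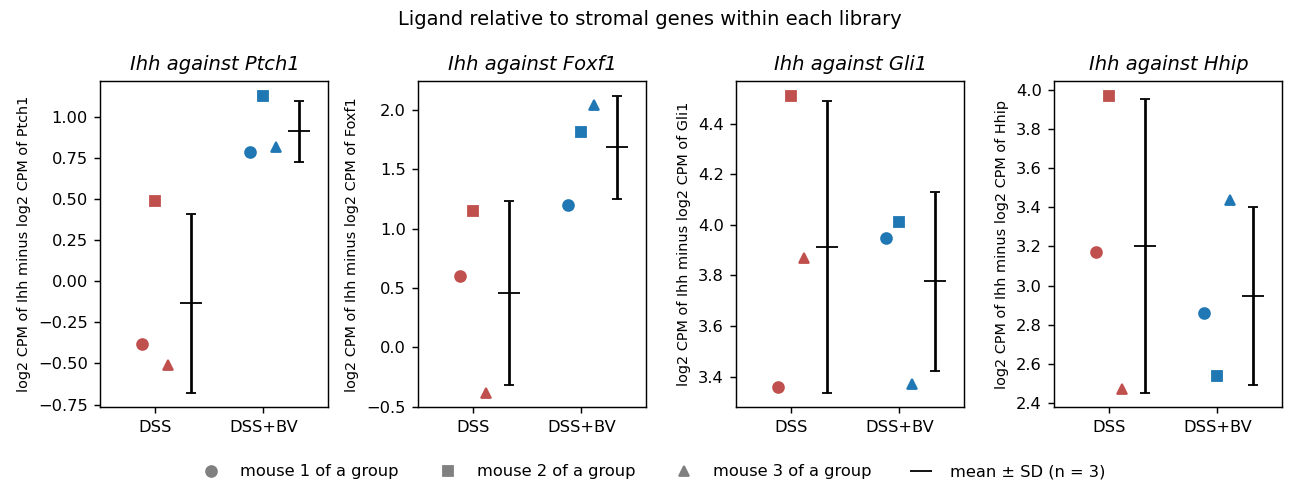
Log2 CPM of Ihh minus log2 CPM of a stromal gene within each library (vertical axes, which do not start at 0), for Ptch1, Foxf1, Gli1 and Hhip, with DSS in red, DSS+BV in blue, marker shapes for the mouse number and black bars for the mean ± SD. The groups separate for Ptch1 (difference 1.05) and Foxf1 (1.23) and overlap for Gli1 (-0.14) and Hhip (-0.25).

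The stromal members were next set against the summed fibroblast markers of the same library. That sum was 1427, 1541 and 2091 CPM in the DSS mice and 1211, 848 and 790 CPM in the DSS+BV mice. Being lower in every DSS+BV library, it tends to raise the ratio there even for a gene at equal CPM. The share of all genes with this ratio higher in every DSS+BV library was not computed. Relative to this sum, log2 Gli3 differed between groups by 0.13 (exact permutation p 0.4) and log2 Gli2 by 0.20 (exact permutation p 0.5). Both had a lower mean CPM in DSS+BV, as did the marker sum. Log2 Foxf1 relative to the sum was at -5.59, -5.65 and -5.66 in DSS and -5.41, -5.27 and -5.19 in DSS+BV. This ratio was higher in every DSS+BV library, by 0.34, the opposite direction to its CPM (exact permutation p 0.1, adjusted p 0.233 over 7 ratios). For Ptch1 the difference was 0.52 with overlapping groups (exact permutation p 0.4). Single libraries moved these ratios: Ptch1 was at 0.24 without DSS+BV 3 and 0.27 without DSS 3, and Gli2 lay between 0.06 without DSS 3 and 0.43 without DSS 1.

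The largest differences relative to the fibroblast markers were those of Hhip and Gli1. Hhip minus the marker sum was -8.16, -8.47 and -8.52 in DSS and -7.08, -6.01 and -6.60 in DSS+BV, a 3.54-fold higher ratio (log2 difference 1.82, exact permutation p 0.1, adjusted p 0.233). Gli1 minus the marker sum was -8.35, -9.01 and -9.92 in DSS and -8.17, -7.47 and -6.52 in DSS+BV, a 3.26-fold higher ratio (log2 difference 1.71, exact permutation p 0.1, adjusted p 0.233). Both sets of values were higher in every DSS+BV mouse, by a small margin for Gli1 between DSS 1 and DSS+BV 1. The marker sum they were divided by was lower in each of those mice, which itself moves such ratios upward. Against smooth muscle markers in place of fibroblast markers, the log2 differences were 1.13 for Hhip, without overlap, and 1.01 for Gli1, with overlap. For Ptch1, Gli2, Gli3 and Foxf1 the choice of marker set turned the sign: against smooth muscle they were -0.17, -0.49, -0.57 and -0.35. On that scale Gli3 and Foxf1 were lower in every DSS+BV library than in any DSS library (exact permutation p 0.1 each), so Foxf1 separated the groups in opposite directions depending on the marker set.

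Ihh relative to the 12 epithelium markers was at -8.18, -7.79 and -8.86 in DSS and -8.24, -8.13 and -7.54 in DSS+BV. The groups overlapped, with a log2 difference of group means of 0.31 (exact permutation p 0.5). For Ihh alone the log2 fold change was 0.68, which is a value fitted by edgeR and so another measure. Without DSS 3 the difference was 0.02, and relative to surface colonocyte markers it was -0.09.

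**Figure D3:**
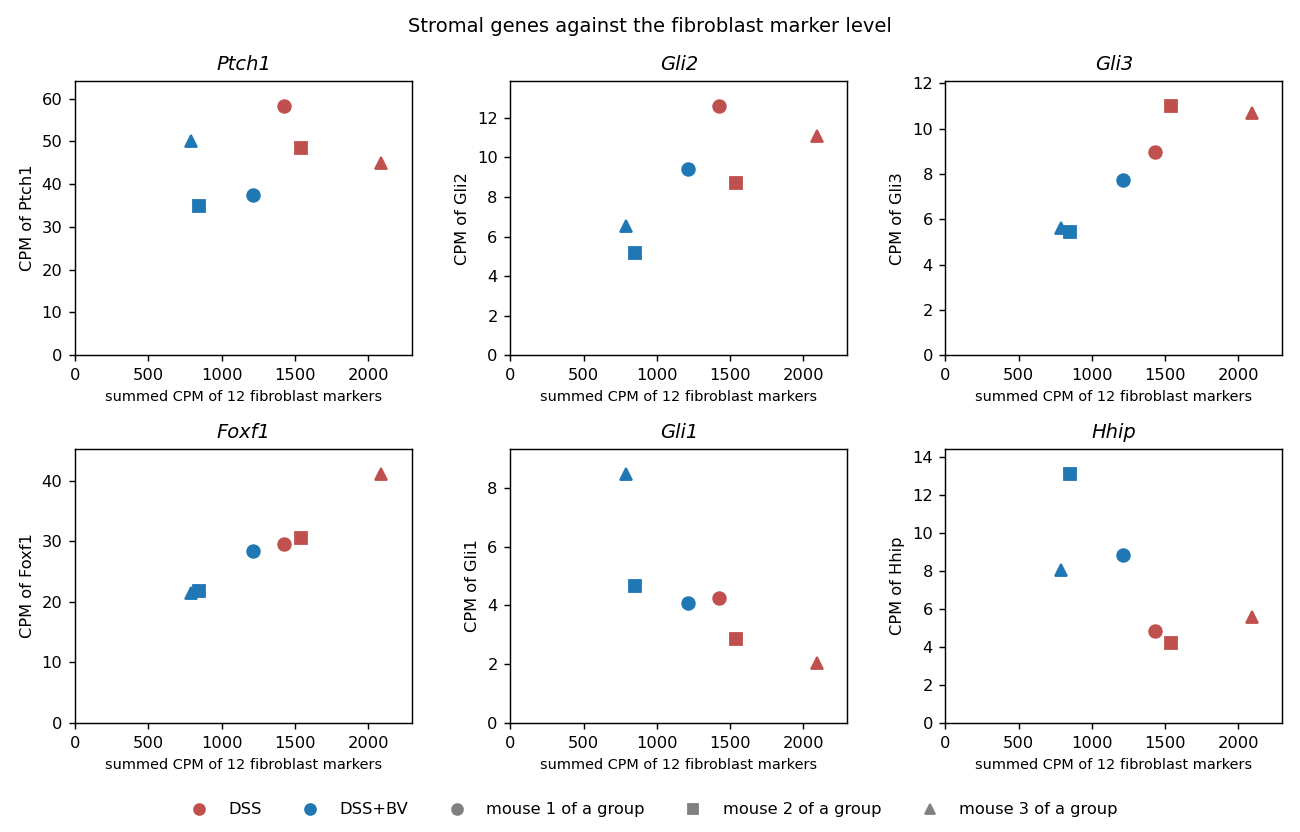
CPM of 6 stromal Hedgehog genes (vertical axes, from 0) against the summed CPM of 12 fibroblast markers (horizontal axes, from 0), 1 point per library, DSS in red and DSS+BV in blue, with marker shapes for the mouse number. Foxf1 and Gli3 are highest in DSS libraries with marker sums of 2091 and 1541 CPM, whereas Hhip and Gli1 are highest in DSS+BV libraries with 848 and 790 CPM of markers.

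Outside the 9 members, 39 further genes of the pathway were listed, and 38 of them, all except Lrp2, passed the filter. Both edgeR and DESeq2 called 0 of 38, and at an unadjusted edgeR p under 0.05 there were 0 higher and 6 lower. Over all genes these shares were 0.0892% called by edgeR, 2.01% called by DESeq2, 3.4% higher and 9.12% lower. Groups did not overlap for 10 of the 38 lower in DSS+BV and 4 higher, against 11.3% and 6.37% of all genes. Of the 38, 32 had a lower mean in DSS+BV by the fitted log2 fold change, with a median of -0.36, and 6 a higher one, while over all genes 7501 were lower and 7078 higher with a median of -0.01. Fibroblast markers, at a median of -0.62, moved with this list and their part in it was not tested. By role, 7 of 7 genes of ligand release were lower (median -0.44), as were 8 of 8 mesenchymal genes downstream (median -0.43). So were 5 of 5 genes of co-receptors and other ligand-binding proteins (median -0.36) and 12 of 18 genes between Smo and Gli (median -0.10).

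Among the genes of ligand release, Scube1, a secreted protein of a family that helps Hedgehog ligands leave the cell, was at 45.6, 47.6 and 56.1 CPM in the DSS mice and 37.9, 28.6 and 34.1 CPM in the DSS+BV mice. Its groups did not overlap (log2 fold change -0.57, SE 0.161, adjusted edgeR p 0.313). Among the co-receptors, Cdon, which presents ligand to Ptch1, was at 40.8, 49.6 and 39.7 CPM in the DSS mice and 36.9, 25.6 and 19.0 CPM in the DSS+BV mice, also without overlap (log2 fold change -0.68, adjusted edgeR p 0.379).

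Between Smo and Gli, 3 of 18 genes had an unadjusted edgeR p under 0.05, all lower in DSS+BV, against 9.12% of all genes. All 3 act at the primary cilium. Gpr161, a ciliary receptor that keeps the pathway off, was at 6.47 to 8.33 CPM in the DSS mice and 4.84 to 5.74 CPM in the DSS+BV mice (log2 fold change -0.54, adjusted edgeR p 0.394). Evc2, which relays the signal from Smo at the base of the cilium, was at 6.95 to 9.2 CPM in the DSS mice and 3.67 to 6.2 CPM in the DSS+BV mice (log2 fold change -0.70, adjusted edgeR p 0.385). Efcab7, a partner that anchors Evc2 there, was at 1.87 to 2.21 CPM in the DSS mice and 0.885 to 1.34 CPM in the DSS+BV mice (log2 fold change -0.89, adjusted edgeR p 0.361). None of the 3 overlapped between groups. Of all 18 genes of this role, 4 were lower and 4 higher in DSS+BV without overlap, against 11.3% and 6.37% of all genes. Sufu, the cytoplasmic inhibitor of the Gli factors, had a log2 fold change of -0.13 with a 95% interval of -0.50 to 0.23.

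Of the mesenchymal genes downstream, Nkx3-2 was at 1.32, 3.36 and 2.1 CPM in the DSS mice and 0.923, 0.319 and 0.948 CPM in the DSS+BV mice, a log2 fold change of -1.62 from low counts (SE 0.553, 95% interval -2.94 to -0.30, adjusted edgeR p 0.354). Bmp4, a mesenchymal signal induced by Hedgehog, was at 60.5, 40.9 and 72.4 CPM in the DSS mice and 52.6, 28.8 and 33.6 CPM in the DSS+BV mice. Its groups overlapped through DSS 2 and DSS+BV 1 (log2 fold change -0.60, adjusted edgeR p 0.462). Foxl1, a factor of the mesenchymal cells under the epithelium, was at 1.45 to 2.59 CPM over the 6 libraries, with a log2 fold change of -0.11. The largest fitted change of the list, that of Nkx3-2, thus fell on a gene of low level, and no gene of the list passed the test.

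**Figure D4:**
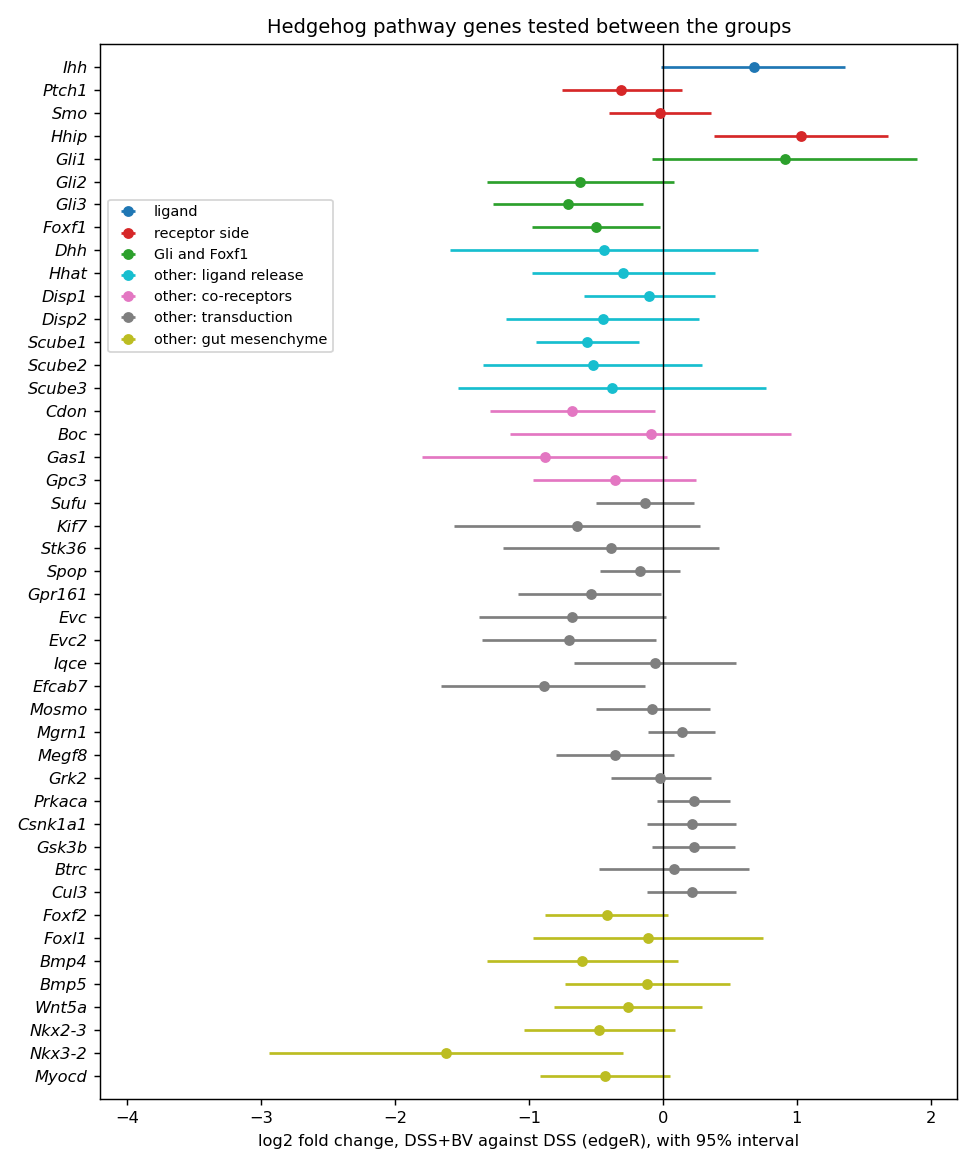
Log2 fold changes of DSS+BV against DSS by edgeR (horizontal axis) with 95% intervals for the 8 tested members and further Hedgehog pathway genes (rows), coloured by role. Most points lie left of 0. Among the members, those of Ihh (0.68), Hhip (1.03) and Gli1 (0.91) lie right of it, as do 6 of the further genes. The interval of Hhip is the one among the members right of 0 that does not cross it.

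The genes whose pattern over the 6 libraries was most like that of Ihh, Shh or Gli1 were looked up among 10426 genes with a mean of at least 10 CPM, as a description over 6 libraries that share depth and tissue makeup within each sample. For Ihh they were Ubxn2a (Pearson r 0.999), Armh3 (0.998), Uap1 (0.997), Kmt5c (0.995) and Zadh2 (0.994). Such values were common over so few libraries: r was over 0.9 for 612 genes with Ihh, 191 with Shh and 166 with Gli1. For Shh they were Rabep1 (0.992), Rundc1 (0.990), Slc35b3 (0.984), Tbc1d4 (0.982) and Slc38a9 (0.981), a list that rests on between 1 and 18 counts of Shh per library. For Gli1 they were Zranb2 (0.983), Tmem208 (0.983), Rpn2 (0.982), Foxred1 (0.977) and Tnpo2 (0.977). Uap1, an enzyme of sugar nucleotide synthesis, shows the form of the Ihh pattern, with 137, 174 and 109 CPM in the DSS mice and 162, 182 and 197 CPM in the DSS+BV mice: DSS 3 was lowest, and DSS 2 stood above DSS+BV 1, as for Ihh.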

How the data were processed

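Colon RNA from 3 DSS and 3 DSS+BV mice was analysed, with libraries assigned to groups by their titles. The authors quantified reads with RSEM and deposited expected counts per gene, not scaled across libraries. The submitters' processing notes name HISAT2 2.1.0, Bowtie2 2.2.5, RSEM 1.2.8 and build GRCm38.p6. The gene annotation and the strand setting of the counting are not given in the sources used here.

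Expected counts were rounded (1573 of 18477 genes held a value that was not whole, 0 of them members), and genes were filtered with filterByExpr (minimum count 10, minimum total 15). Library scaling used TMM factors. Groups were tested by quasi-likelihood in edgeR 4.0.16 (R 4.3.3), and p-values were adjusted after Benjamini and Hochberg over the 14579 genes tested. The common biological coefficient of variation was 32.1%. The study used DESeq2, which was run here as an alternative (version 1.42.0), beside scaling by RLE or by upper quartiles, a looser and a stricter count filter, a robust fit, the replicate number as a block, and libraries left out. Log2 CPM for ratios within a library carried a prior count of 2 (0.5 as the alternative), and ratios were tested by two-sided exact permutation (scipy 1.17.1). The fits were first tested on simulated data.

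Replicates of a group differed by more than sampling noise (chi-square per degree of freedom 42.9 to 119). Each library is 1 mouse, so the tests set differences between groups against the spread between mice. The floor of 3 counts covers counting error only. Deviations of same-numbered mice from their group means had correlations of mixed sign (0.267, 0.255 and -0.296). The labels name no pairing, so the numbers were not treated as pairs.

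The members and lists were chosen with earlier results of these data known. Named genes are the 9 members, the other pathway genes with an unadjusted p under 0.05, Foxl1, Bmp4 and Sufu, and the 5 genes most alike in pattern to Ihh, Shh and Gli1. The full rule names a further gene, which is not reported here. Uap1 was described in full after its values were seen. Remaining marker lists gave these sums in DSS against DSS+BV: surface colonocyte 5392 to 10348 against 7486 to 20790 CPM, crypt base 108 to 203 against 178 to 253, squamous epithelium 2.24 to 4.61 against 2.02 to 3.17, and distal colon position 58.9 to 344 against 14.9 to 340. Olfm4, Krt5, Krt4, Trp63, Dsg3, Hoxb13, Hoxd12 and Hoxc10 were at 0 in at least 1 library. Figures were drawn with matplotlib 3.10.9.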

Additional observations from a re-analysis of the deposited data

How the results depend on the processing

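Of the 117 alternative log2 fold changes of the members, 108 kept their direction and their side of the threshold. The side was nearly fixed with edgeR, which called at most 13 genes in any setting that kept every library. The settings also share most or all of their libraries, so they are not independent checks. Ihh, Ptch1, Gli1, Gli2, Gli3 and Foxf1 did so in 14 of 14 settings each, and Hhip in 13, passing the threshold with DESeq2 at 1.05. With 3 mice per group, no exact permutation test could give a two-sided p under 0.1, and Shh, with 1 to 18 counts per library, was too low to compare at this depth. DESeq2 called 325 genes in all and 1 member. Leaving out DSS 2 and DSS+BV 1 together gave 615 calls, 333 lower and 282 higher, and the libraries removed are those nearest the other group, which by construction favours differences. With 1 library left out, edgeR called 0 to 7 genes and 0 members. With the replicate number as a block, edgeR called 0 genes, and Hhip had an adjusted p of 0.44. The labels do not say that equal numbers pair the mice.

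The sign of Smo turned with DESeq2 (0.00257), with every gene with a count kept (0.0111), without DSS 2 and DSS+BV 1 (0.0335) and with single libraries left out (-0.124 to 0.0797). Shh, which the filter removed from the reported fit, was at 0.198 with every gene with a count kept and at 0.197 with DESeq2, and lay between -0.345 and 0.599 in the fits without a single library that kept it. With single libraries left out, Ihh minus Gli1 lay between -0.42 and 0.16, Ihh minus Hhip between -0.62 and 0.13, and Gli3 relative to fibroblast markers between -0.01 and 0.24. Against smooth muscle markers, Ptch1 (-0.17), Gli2 (-0.49), Gli3 (-0.57) and Foxf1 (-0.35) turned, as did Ihh (-0.09) against surface colonocyte markers. The cause of these changes was not tested.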
